A study of Homo sapiens with 12 samples.

Results

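The expression of 9 genes of the NRF2 oxidative-stress response was followed through the RNA-seq data of mantle cell lymphoma (MCL) cells treated with ironomycin and ibrutinib. The genes were listed by name and matched by Ensembl identifier to the deposited table, where all 9 were found among 63677 genes. They are HMOX1 (ENSG00000100292), NQO1 (ENSG00000181019), GCLM (ENSG00000023909), GCLC (ENSG00000001084), TXNRD1 (ENSG00000198431), SRXN1 (ENSG00000271303), NFE2L2 (ENSG00000116044), KEAP1 (ENSG00000079999) and BACH1 (ENSG00000156273). All 9 passed the filter on low counts, which left 18674 genes for testing.

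The study asked how MCL cells respond to ironomycin, a salinomycin derivative that traps iron in lysosomes, alone and with ibrutinib, which blocks the B-cell kinase BTK. Polyadenylated RNA of 12 cultures was sequenced, with 1 library per cell line and treatment. The lines JEKO1, JVM2 and MAVER1 were each left as control or given ironomycin, ibrutinib or both drugs for 48 h. Ironomycin was given at 50 nM to JEKO1 and at 250 nM to JVM2 and MAVER1, and ibrutinib at 0.5 µM to JEKO1, 1.5 µM to JVM2 and 6.25 µM to MAVER1. JVM2 was also grown with less serum than the other lines, and in the paper's drug synergy assays it was seeded at fewer cells per well. Dose, medium and cell line therefore cannot be told apart. The 3 lines served as the replicates of a treatment (n = 3), so that p-values of treatments over all lines measure the spread between lines. Those for a difference between lines rest on 4 libraries of each line, and those for ironomycin within a line on 2 libraries against 2, with the residual spread of all 12 libraries.

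NRF2, encoded by NFE2L2, is a transcription factor that is held in the cytoplasm and sent for degradation by KEAP1 until oxidants or electrophiles modify KEAP1. NRF2 then pairs with small MAF proteins on antioxidant response elements and drives genes that make glutathione, regenerate thioredoxin and detoxify quinones. BACH1 occupies the same elements as a repressor, and heme releases it and marks it for degradation, which ties HMOX1, the enzyme that breaks heme down to biliverdin, iron and carbon monoxide, to heme and iron supply.

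Because NRF2 and BACH1 recognise the antioxidant response element, its core, TGACNNNGC on either strand, was searched in the RefSeq promoter windows (GRCh38.p14, 250 bases before to 50 after each start). Of the 9 genes, 8 had at least 1 window, and HMOX1 was not searched. The core was found for 3 of these 8 genes, GCLM, KEAP1 and TXNRD1, in 4 of their 13 windows. Over all promoters it was found in 13.3% of 35116 windows and for 16.1% of 27305 genes. The stretches around the matches upstream of the start are shown 5′ to 3′ on the strand of the gene, with the core in capitals, since they are where the letters of this element stand in the genes described below. A further match in the first TXNRD1 window crosses the start and is not shown.
GCLM, chr1:93909436-93909484 (minus strand): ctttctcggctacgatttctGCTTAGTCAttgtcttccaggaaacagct
KEAP1, chr19:10502774-10502845 (minus strand): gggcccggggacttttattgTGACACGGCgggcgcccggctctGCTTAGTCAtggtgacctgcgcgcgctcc
TXNRD1, first start, chr12:104215660-104215708 (plus strand): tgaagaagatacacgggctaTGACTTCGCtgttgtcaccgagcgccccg
TXNRD1, second start, chr12:104286910-104286958 (plus strand): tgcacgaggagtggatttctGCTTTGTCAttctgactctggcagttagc

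The GCLM core lies 34 to 26 bases before the start. The KEAP1 window holds 2 cores, at 54 to 46 and at 31 to 23 bases before its start. Those of TXNRD1 lie 99 to 91 bases before the first start and 102 to 94 bases before the second. GCLC, NQO1, SRXN1, NFE2L2 and BACH1 had no match to these letters within their windows. A match describes letters and not occupancy, which was not measured here.

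The libraries held 35448523 to 38630809 counted reads. Levels are given as CPM, counts scaled to library size after TMM normalisation. The B-cell markers MS4A1, CD79A, CD79B and PAX5 were expressed in every library, at no less than 97.4 CPM (CD79B in JVM2). With ironomycin against control, CD79A was lower in each line (280 against 448 CPM in JEKO1, 448 against 486 in JVM2 and 242 against 368 in MAVER1), as was CD79B, whereas MS4A1 was lower only in MAVER1 (329 against 431 CPM), and the part of these shifts in the results below was not tested. Of the MCL markers, CCND1 reached 216 to 322 CPM in JVM2 against at least 2180 CPM in the other lines, and SOX11 was at 0 in all JVM2 libraries. Summed T-cell and summed monocyte markers stayed at or below 5.07 CPM in every library, with FCGR3A at 0, the globins HBA1 and HBA2 reached 1.36 CPM at most with HBB at 0, and summed epithelial markers reached 24 CPM, in MAVER1. In bulk RNA of this kind, fewer cells of one type and less RNA per cell cannot be told apart. A gene is said to have risen or fallen where its edgeR adjusted p-value was under 0.05. A call at 2-fold also required the log2 fold change to reach 1 or -1.

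The levels of the 9 genes differed by line, here averaged over control and drug-treated libraries and not over untreated cells alone. Per kilobase of exon, the scale on which genes can be compared, KEAP1 and TXNRD1 had the highest means of the 9 genes in each line. KEAP1 averaged 43.0 ± 1.99 CPM per kb in JEKO1, 33.8 ± 2.66 in JVM2 and 41.6 ± 4.32 in MAVER1 (mean ± SD over the 4 libraries of a line, treatments included). TXNRD1 averaged 34.0 ± 4.36, 19.3 ± 2.53 and 49.9 ± 3.68 CPM per kb in the same order of lines. At the low end stood HMOX1 in JEKO1, at 0.799 ± 0.399 CPM per kb, and NQO1 in JEKO1, at 2.09 ± 0.537, and in MAVER1, at 2.62 ± 0.783.

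In JVM2 the order below KEAP1 and TXNRD1 was NQO1 at 17.3 ± 0.287 CPM per kb, HMOX1 at 13.4 ± 1.67 and NFE2L2 at 9.02 ± 0.545. These 3 ranges did not overlap, although that of NQO1 lay within the range of TXNRD1. GCLM (5.42 ± 0.567), GCLC (5.41 ± 0.634) and BACH1 (4.36 ± 0.553) followed within each other's spread, and SRXN1 was lowest at 3.20 ± 0.553, overlapping BACH1. MAVER1 kept HMOX1 high, at 14.3 ± 2.46 CPM per kb. There GCLC (6.21 ± 0.796), BACH1 (5.23 ± 2.23), NFE2L2 (5.12 ± 0.597) and GCLM (5.02 ± 0.457) overlapped in range. SRXN1 had a lower mean, 3.01 ± 0.765, in a range that met that of BACH1 alone among these 4. JEKO1 had NFE2L2 at 6.70 ± 0.401 and GCLC at 5.69 ± 0.765, whose ranges just failed to meet, with BACH1 at 5.43 ± 1.48 overlapping both. GCLM at 2.65 ± 0.204 and SRXN1 at 2.45 ± 0.411 overlapped each other and NQO1.

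Between lines, over the 4 libraries each and with treatment in the model, 3 of 9 genes differed at 2-fold between JEKO1 and JVM2, where 46.8% of all genes tested did. HMOX1 was lower in JEKO1 by a log2 difference of -4.09 (SE 0.32, adjusted p = 4.54e-07), NQO1 by -3.05 (SE 0.23, adjusted p = 3.03e-07) and GCLM by -1.04 (SE 0.11, adjusted p = 3.87e-06). MAVER1 differed from JVM2 at 2-fold in 2 of 9 genes (background 40%): NQO1 at -2.73 (SE 0.23, adjusted p = 8.31e-07) and TXNRD1 at 1.37 (SE 0.11, adjusted p = 7.33e-07). JEKO1 differed from MAVER1 at 2-fold only in HMOX1 among the 9 (background 34.2%), with a log2 difference of -4.18 (SE 0.32, adjusted p = 6.97e-07). NQO1, the quinone reductase that serves as a standard reporter of NRF2, was high in 1 line of 3 and HMOX1 in 2 of 3, and the lines high in one were not all high in the other. At an adjusted p under 0.05 alone, 7, 4 and 4 of the 9 genes differed in these 3 comparisons (background 78.3%, 71.2% and 66.4%). NFE2L2 itself did not reach 2-fold in any of them. Its log2 level in JVM2 was above that in JEKO1 by 0.43 and above that in MAVER1 by 0.82, both with adjusted p under 0.05. The difference from JEKO1 did not pass when counts were scaled by library totals in place of TMM, where 14883 of all 18674 genes passed.

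**Figure D1:**
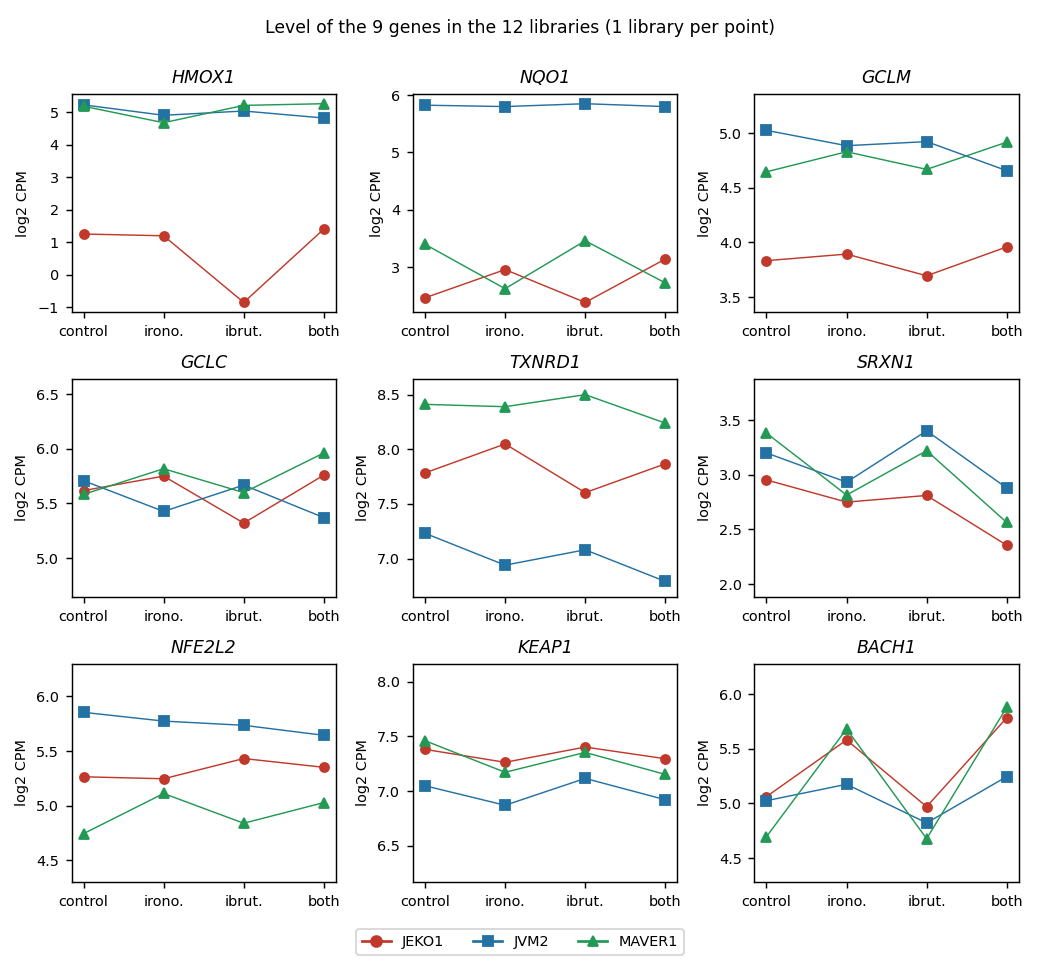
Level of each gene (log2 CPM, vertical axis) under the 4 treatments (irono., ironomycin; ibrut., ibrutinib) in JEKO1, JVM2 and MAVER1; each point is 1 library, lines join the libraries of a cell line, and each panel has its own range. HMOX1 lies between -0.85 and 1.41 in JEKO1 and at 4.68 or above in the other lines, NQO1 lies between 5.80 and 5.85 in JVM2 and at 3.46 or below elsewhere, and BACH1 is higher with ironomycin and with both drugs than with control or ibrutinib in every line.

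Across the 3 lines, no gene of the 9 was called at 2-fold in any treatment comparison. With ironomycin against control, edgeR called 0 of 9 at 2-fold (background 0.214%) and 0 of 9 at an adjusted p under 0.05 alone (background 0.584%). At an unadjusted p under 0.05, 3 of 9 passed, SRXN1, KEAP1 and BACH1, where 22.5% of all genes did. DESeq2 called 2 at an adjusted p under 0.05, KEAP1 and BACH1, where it called 2308 of all 18674 genes, and 0 at 2-fold.

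Both drugs against control again gave 0 of 9 at 2-fold (background 6.29%), with 3 at an unadjusted p under 0.05 (background 41.1%) and 0 at 2-fold by DESeq2. At an adjusted p under 0.05 alone, 2 of 9 passed, 1 higher and 1 lower, where 28.2% of all genes did (14.2% higher and 14% lower). BACH1 rose by a log2 fold change of 0.71 (SE 0.16, adjusted p = 0.0107) and SRXN1 fell by 0.58 (SE 0.13, adjusted p = 0.0112). Against ibrutinib alone, both drugs gave 0 of 9 at 2-fold by edgeR and by DESeq2 (background 4.66%; 3 of 9 at an unadjusted p under 0.05, beside 37.7%), and 2 of 9 passed at an adjusted p under 0.05, 1 higher and 1 lower (background 23.3%, with 11.8% higher and 11.5% lower). BACH1 was higher by 0.82 (SE 0.16, adjusted p = 0.00834) and SRXN1 lower at -0.55 (SE 0.13, adjusted p = 0.0173). The comparisons share libraries and are not independent of each other. Both calls against control were lost without JEKO1 (adjusted p = 0.124 for BACH1 and 0.0993 for SRXN1) and without MAVER1 (0.110 and 0.157). They were also lost in a fit of these 6 libraries alone (0.0856 and 0.103), and both were kept without JVM2. Most calls over all genes were lost too: 5268 passed in the full fit, 37 without JEKO1, 22 without MAVER1 and 5 in the 6 libraries. Without JVM2, 6103 of all genes passed. Those against ibrutinib were lost in the corresponding fits without JEKO1, without MAVER1 and of 6 libraries alone. In these fits 1, 6 and 306 of all genes passed in that order, beside 4359 in the full fit. The log2 fold change of BACH1 was 0.70 without JEKO1, 0.47 without MAVER1 and 0.92 without JVM2.

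Ibrutinib against control and both drugs against ironomycin gave 0 of 9 genes by edgeR, at 2-fold or without the minimum, and 0 at an unadjusted p under 0.05, against a background of 0% called and 3.64% and 10.5% at an unadjusted p. DESeq2 also gave 0 of 9 in each. Whether the combined change departed from adding up both single-drug changes was also tested, and 0 of 9 genes passed by edgeR (background 0%; 0 of 9 at an unadjusted p under 0.05, beside 1.97% of all genes) and 0 by DESeq2. The intervals set what could have been missed. For GCLM with ironomycin the 95% interval of the log2 fold change ran from -0.24 to 0.30, and for TXNRD1 from -0.29 to 0.26. For HMOX1 it ran from -1.05 to 0.42, which includes a 2-fold fall, so that such a change was not excluded with these 3 lines.

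**Figure D2:**
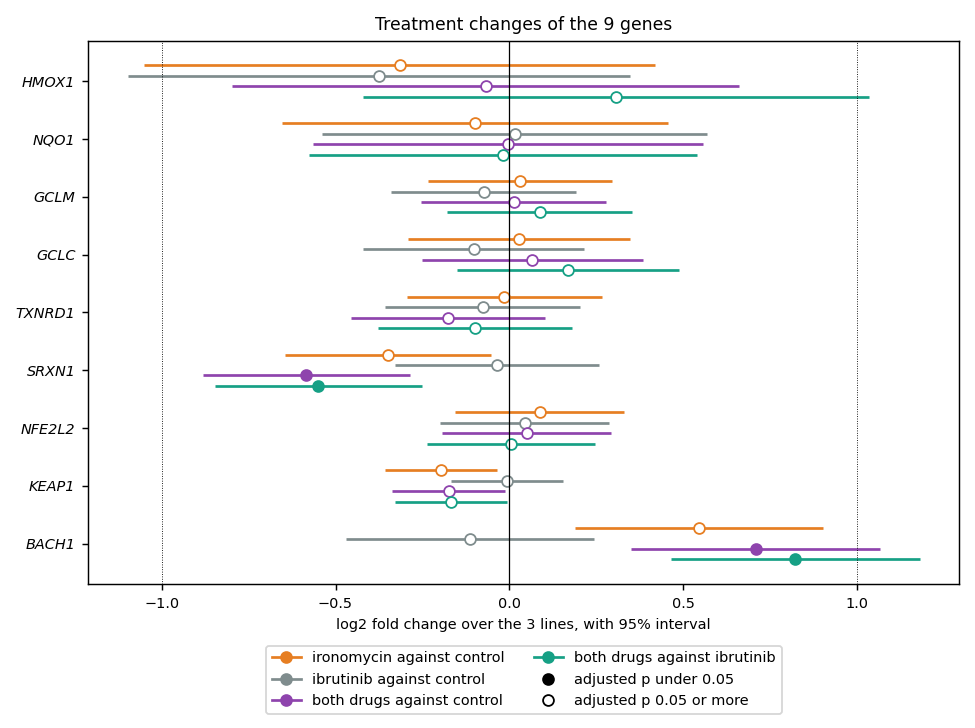
Log2 fold change of each gene over the 3 lines (points, horizontal axis) with its 95% interval (bars) for 4 treatment comparisons, with dotted lines at a 2-fold change; filled points have an adjusted p under 0.05. Only BACH1 (0.71 and 0.82) and SRXN1 (-0.58 and -0.55), with both drugs against control and against ibrutinib, are filled.

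A mean over lines hides what the lines did separately. The ironomycin change was therefore fitted for each line, as the mean of its change without and with ibrutinib (2 libraries against 2), with the spread estimated over all lines. The change differed between lines for 4 of 9 genes, NQO1, BACH1, GCLC and TXNRD1, where 9.38% of all genes did. These 4 calls depended on which lines were kept. Without JEKO1, 3 remained (NQO1, GCLC and BACH1), without JVM2 only NQO1, and without MAVER1 none (0 of 9). The calls over all genes also changed, to 1897, 645 and 260 in that order, beside 1751 in the full fit.

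By line, JEKO1 had 4 of 9 genes at an adjusted p under 0.05 (background 33.3%, with 17% higher and 16.2% lower), all higher, and 0 at 2-fold by edgeR and by DESeq2 (background 7.35%). JVM2 had 0 of 9 by edgeR (background 3.27%; 0.712% at 2-fold), 5 at an unadjusted p under 0.05 (background 19.8%) and 1 by DESeq2, TXNRD1, where DESeq2 called 961 of all 18674 genes. MAVER1 had 6 of 9 (background 32.7%, with 16.6% higher and 16% lower), 3 higher and 3 lower, of which BACH1 was the 1 call at 2-fold (background 6.35%). The 9 genes had a median log2 change of 0.26 (JEKO1), -0.20 (JVM2) and -0.14 (MAVER1), beside 0.031, 0.0027 and 0.018 for all genes tested.

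**Figure D3:**
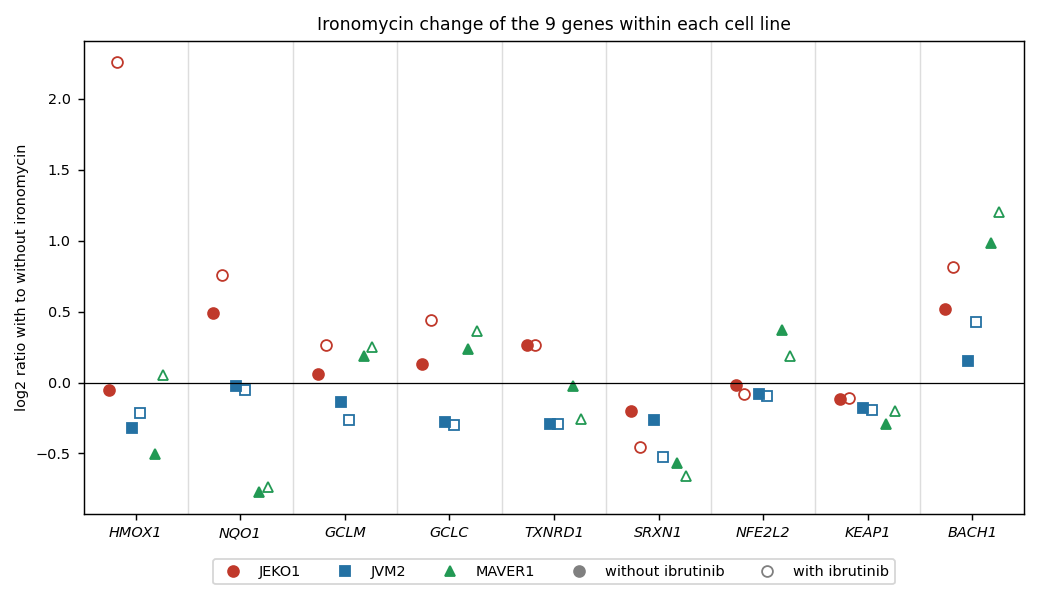
Log2 ratio with to without ironomycin for each gene within each line (vertical axis), with filled symbols for libraries without ibrutinib and open symbols for libraries with it; each symbol compares 2 libraries. NQO1 is above 0 in both JEKO1 pairs (0.49 and 0.76) and below 0 in both MAVER1 pairs (-0.77 and -0.73), BACH1 is above 0 in all 6 pairs and SRXN1 below 0 in all 6, and the open JEKO1 symbol of HMOX1 (2.26) rests on 20 and 110 reads.

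HMOX1 was read 93 times in the JEKO1 control, 94 times with ironomycin, 20 times with ibrutinib and 110 times with both drugs. In JVM2 its counts were 1314, 1093, 1176 and 1051 in the same order, and in MAVER1 they were 1318, 954, 1377 and 1457. The JEKO1 libraries thus lay below every JVM2 and MAVER1 library, and within JEKO1 the ibrutinib library stood apart from the other three. Ibrutinib against control in JEKO1 was a fold of 0.215 (exact binomial 95% interval 0.126 to 0.352, counting error only), and both drugs against ibrutinib a fold of 5.18 (3.20 to 8.80). Each is a ratio of 2 libraries with no replicate within the line. In JVM2 the fold for ibrutinib against control was 0.877 and in MAVER1 it was 1.02. Over the 3 lines the log2 fold change for ibrutinib against control was -0.37 (SE 0.33, adjusted p = 1), and without JEKO1 it was -0.08. For both drugs against ibrutinib it was 0.31 (SE 0.33, adjusted p = 0.531), and -0.07 without JEKO1. Ironomycin alone against control gave folds of 0.962 in JEKO1 (interval 0.715 to 1.30), 0.800 in JVM2 (0.738 to 0.868) and 0.703 in MAVER1 (0.646 to 0.765). The JEKO1 interval includes 1, so that no direction can be read there. As the intervals cover counting error only, those of JVM2 and MAVER1 do not settle a direction for these lines either. Over the 3 lines the change did not pass the test (-0.32, SE 0.33, adjusted p = 0.611). In the presence of ibrutinib the folds with ironomycin were 5.18 (JEKO1), 0.861 (JVM2) and 1.04 (MAVER1), so that only the JVM2 fold was below 1. The fitted log2 change of HMOX1 for ironomycin within a line was 0.80 for JEKO1 (SE 0.40, adjusted p = 0.153), -0.26 for JVM2 (adjusted p = 0.618) and -0.23 for MAVER1 (adjusted p = 0.547). With a separate ibrutinib term for each line, the JEKO1 value passed (0.87, adjusted p = 0.0169), as did 8035 of all 18674 genes in JEKO1.

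NQO1 showed opposite changes in 2 lines. In JEKO1, NQO1 was at 5.48 CPM in the control and 5.18 with ibrutinib, against 7.73 with ironomycin and 8.78 with both drugs. In MAVER1, NQO1 was at 10.5 and 11.0 CPM without ironomycin, against 6.12 with ironomycin and 6.57 with both drugs. In JVM2, NQO1 stayed between 55.6 and 57.6 CPM. The libraries with and without ironomycin did not overlap in JEKO1, where they were higher with it, or in MAVER1, where they were lower. Here and below, such a separation of 2 libraries from 2 within a line can also arise without an effect. The share of all genes that showed it was not determined. The fitted log2 change was 0.63 in JEKO1 (SE 0.10, adjusted p = 0.00112), -0.04 in JVM2 (SE 0.09, adjusted p = 0.878) and -0.76 in MAVER1 (SE 0.10, adjusted p = 3.11e-04), and the lines differed (adjusted p = 0.00127). The opposite signs left a mean over lines of -0.10 (SE 0.25, adjusted p = 0.852) for ironomycin against control.

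GCLC and GCLM encode the catalytic and modifier subunits of glutamate-cysteine ligase, the first and rate-limiting enzyme of glutathione synthesis. In JEKO1, GCLC was at 49.0 CPM in the control, 53.7 under ironomycin, 39.9 under ibrutinib and 54.1 under both drugs. In JVM2, GCLC was at 52.2, 43.0, 50.8 and 41.3 CPM in that order, and in MAVER1 at 47.9, 56.3, 48.4 and 62.2 CPM. The libraries with ironomycin were above those without it in JEKO1 and MAVER1 and below them in JVM2, with no overlap within any line. GCLC rose with ironomycin in JEKO1 (0.28, SE 0.09, adjusted p = 0.0382) and in MAVER1 (0.30, SE 0.09, adjusted p = 0.0304), and was -0.29 in JVM2 (SE 0.09, adjusted p = 0.121). The difference between lines passed (adjusted p = 0.0266), whereas the calls in JEKO1 and MAVER1 did not pass by DESeq2 (adjusted p = 0.0682 and 0.0552) or without the filter on low counts (0.116 and 0.0731). Without JVM2 both were lost as well (0.0561 and 0.0506), and the JEKO1 call also without MAVER1 (0.0823).

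The modifier subunit had the same signs with smaller values. In JEKO1, GCLM was at 14.2 CPM in the control, 14.8 under ironomycin, 12.9 under ibrutinib and 15.5 under both drugs. In JVM2, GCLM was at 32.5, 29.5, 30.3 and 25.2 CPM, and in MAVER1 at 25.0, 28.4, 25.4 and 30.2 CPM. Within each line the libraries with ironomycin did not overlap those without. None of the line changes passed (0.16 in JEKO1, -0.20 in JVM2 and 0.22 in MAVER1, adjusted p = 0.267, 0.306 and 0.130), nor did the difference between lines (adjusted p = 0.136).

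TXNRD1, the cytosolic thioredoxin reductase, was the most abundant target. In JEKO1, TXNRD1 was at 220 CPM in the control, 265 under ironomycin, 194 under ibrutinib and 233 under both drugs. In JVM2, TXNRD1 was at 150, 123, 135 and 111 CPM in that order, and in MAVER1 at 340, 335, 362 and 302 CPM. The ironomycin libraries were the higher ones in JEKO1 and the lower ones in JVM2 and MAVER1. In MAVER1 the fold without ibrutinib was 0.985 (exact binomial 95% interval 0.961 to 1.01), so that no direction can be read in that pair. TXNRD1 rose in JEKO1 (0.26, SE 0.08, adjusted p = 0.0338), and was at -0.29 in JVM2 (SE 0.09, adjusted p = 0.0905) and -0.14 in MAVER1 (SE 0.08, adjusted p = 0.227). The lines differed (adjusted p = 0.0326). By DESeq2, which also gave a difference between lines, TXNRD1 passed in JVM2 as well (-0.30, adjusted p = 0.0146). The JEKO1 call was lost without the filter on low counts (adjusted p = 0.0973), without JVM2 (0.0652) and without MAVER1 (0.0864), though not by DESeq2 (0.0171).

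SRXN1, sulfiredoxin, repairs over-oxidised peroxiredoxins and is a classical NRF2 target. In JEKO1, SRXN1 was at 7.69 CPM in the control, 6.67 under ironomycin, 6.96 under ibrutinib and 5.06 under both drugs. In JVM2, SRXN1 was at 9.13, 7.58, 10.5 and 7.30 CPM, and in MAVER1 at 10.4, 6.98, 9.27 and 5.86 CPM. Both libraries with ironomycin were below both libraries without it in every line, and the lowest value of each line was that with both drugs. SRXN1 fell in MAVER1 by 0.62 on the log2 scale (SE 0.15, adjusted p = 0.00756) and was at -0.33 in JEKO1 (adjusted p = 0.109) and -0.40 in JVM2 (adjusted p = 0.157). A difference between lines was not detected (adjusted p = 0.59). SRXN1 was read 214 to 376 times per library.

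The transcripts of the regulators moved differently from each other. NFE2L2 was at 38.4, 37.9, 43.1 and 40.8 CPM in JEKO1 (control, ironomycin, ibrutinib, both drugs) and at 57.8, 54.7, 53.2 and 50.0 CPM in JVM2. In MAVER1, NFE2L2 was at 26.8, 34.5, 28.6 and 32.6 CPM. Libraries with and without ironomycin overlapped in JEKO1 and JVM2 and did not overlap in MAVER1, where NFE2L2 rose by 0.28 (SE 0.10, adjusted p = 0.0468). That call did not pass by DESeq2 (adjusted p = 0.101), without the filter (0.115) or by edgeR with DESeq2 size factors. The difference between lines did not pass either (adjusted p = 0.162). The exons of NFE2L2 overlap those of AGPS on the opposite strand, which had 1391 to 3103 reads. Whether strand was used in counting is not given in the sources used here, so reads of the 2 genes may not be fully separated.

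KEAP1 was at 167, 154, 169 and 157 CPM in JEKO1, at 132, 117, 139 and 121 CPM in JVM2, and at 176, 144, 164 and 142 CPM in MAVER1. The libraries with ironomycin were the lower ones in each line, without overlap. KEAP1 fell in MAVER1 by 0.25 (SE 0.08, adjusted p = 0.0289), and was at -0.11 in JEKO1 (adjusted p = 0.287) and -0.19 in JVM2 (adjusted p = 0.206). The MAVER1 call was lost when counts were scaled by library totals in place of TMM, where 6072 of all 18674 genes passed. Over the 3 lines ironomycin against control was -0.20 (SE 0.07, adjusted p = 0.154). DESeq2 gave -0.21 with an adjusted p of 0.0104.

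BACH1 was the member with the largest treatment change among the comparisons over all lines that passed the test. In JEKO1, BACH1 was at 33.4 CPM in the control and 31.3 with ibrutinib, against 47.8 with ironomycin and 55.1 with both drugs. In MAVER1, BACH1 was at 25.9 and 25.5 CPM without ironomycin, against 51.3 with it and 58.8 with both drugs. In JVM2, BACH1 was at 32.5 and 28.2 CPM without ironomycin and 36.1 and 37.9 CPM with it. All 6 libraries with ironomycin were above all 6 without it, over the 3 lines. The fold with ironomycin against control was 1.43 in JEKO1 (exact binomial 95% interval 1.34 to 1.54, counting error only), 1.11 in JVM2 (1.02 to 1.20) and 1.98 in MAVER1 (1.83 to 2.15). BACH1 rose in JEKO1 by 0.67 on the log2 scale (SE 0.08, adjusted p = 2.85e-04) and in MAVER1 by 1.10 (SE 0.09, adjusted p = 1.75e-05), and was at 0.29 in JVM2 (SE 0.08, adjusted p = 0.0919). The lines differed (adjusted p = 0.00718). Over the 3 lines ironomycin alone gave 0.55 (SE 0.16, adjusted p = 0.0984), which passed by DESeq2 (0.54, adjusted p = 0.0144) and without JVM2 (0.73, adjusted p = 0.0282).

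The other regulators were taken from a list of 18 genes that act on NRF2 or BACH1 or share their elements, of which 17 were tested. The difference between lines passed for 7 of 17, where 9.38% of all genes passed. All 7 calls were lost without JVM2 and also without MAVER1, where 645 and 260 of all genes passed, beside 1751 in the full fit. Those of MAFF, MAFG, CREBBP and EP300 were kept without JEKO1, where 1897 of all genes passed. The 7 were the small MAF partners MAFF, MAFG and MAFK, the related factor NFE2L1, SQSTM1, the autophagy receptor that takes up KEAP1, and the coactivators CREBBP and EP300. NFE2L1, which activates proteasome genes and shares NRF2's elements, rose in each line with ironomycin. In JEKO1, NFE2L1 was at 169 CPM in the control and 184 with ibrutinib, against 334 with ironomycin and 457 with both drugs. In JVM2, NFE2L1 was at 323 and 289 CPM without ironomycin and 419 and 467 with it, and in MAVER1 at 221 and 218 CPM without and 338 and 402 with it. Libraries with and without ironomycin did not overlap in any line. The log2 change was 1.15 (SE 0.10) for JEKO1, 0.53 (SE 0.10, adjusted p = 0.0199) for JVM2 and 0.75 (SE 0.10) for MAVER1. The JVM2 call was lost without MAVER1. MAFG rose in JEKO1 by 1.21 and in MAVER1 by 0.75, and SQSTM1 by 0.92 and 0.48. MAFF rose in MAVER1 by 1.69 from few reads, at 1.41 and 0.781 CPM without ironomycin and 3.81 and 3.01 with it. DPP3, which binds KEAP1, fell in JEKO1 by 0.82 and in MAVER1 by 0.45.

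**Figure D4:**
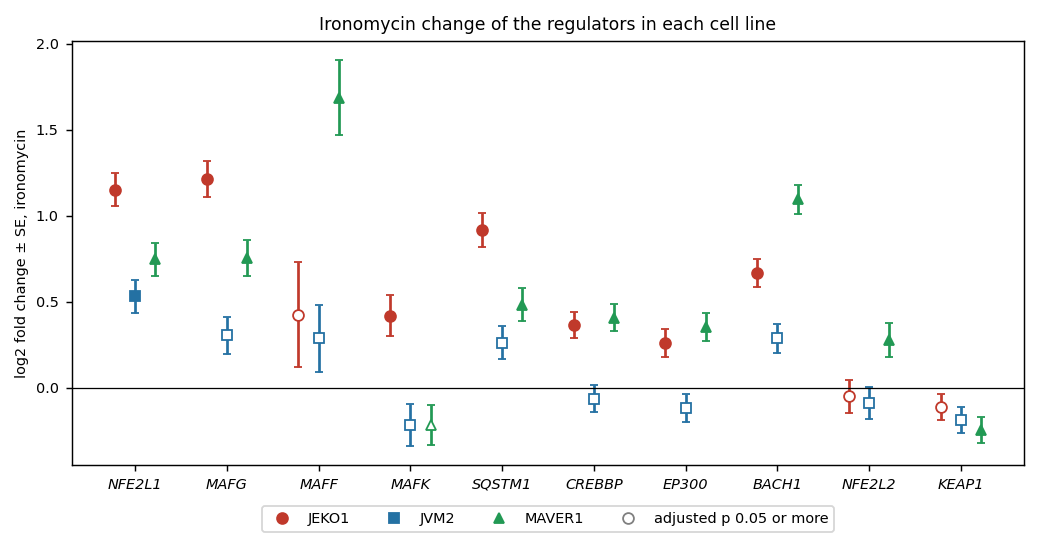
Ironomycin change (log2 fold change, bars ± SE) in each line for the 7 listed regulators whose change differed between lines and for BACH1, NFE2L2 and KEAP1; open symbols have an adjusted p of 0.05 or more. NFE2L1 is filled in all 3 lines (1.15, 0.53 and 0.75, the JVM2 call being lost without MAVER1, as were all 7 differences between lines), BACH1 is filled in JEKO1 and MAVER1 (0.67 and 1.10), and NFE2L2 and KEAP1 lie between -0.25 and 0.28.

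Other genes of the pathway were taken from 4 lists holding 75 genes, of which 74 were in the table and 69 were tested. With ironomycin against control 1 of 69 passed an adjusted p under 0.05, FTH1. With both drugs against control 28 of 69 passed (40.6%, beside 28.2% of all genes), 14 higher and 14 lower, and their median log2 change was -0.07, beside 0.051 for all genes tested. Refits added after the data were seen gave 31 genes without JVM2, where 6103 of all genes passed. They gave 0 without JEKO1 or without MAVER1, where 37 and 22 of all genes passed. The members of one list did not move as a block, as the plot of the other pathway genes shows.

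In the glutathione and thioredoxin system, 9 of 22 genes passed with both drugs against control, 2 higher and 7 lower (beside 28.2% of all genes, 14.2% higher and 14% lower), with a list median of -0.34. SLC7A11, the cystine importer that feeds glutathione synthesis, rose by 1.30 (SE 0.30, adjusted p = 0.0112). In JEKO1, SLC7A11 was at 9.55 CPM in the control, 21.4 under ironomycin, 6.36 under ibrutinib and 29.5 under both drugs. In JVM2, SLC7A11 was at 15.3, 17.1, 10.3 and 17.0 CPM, and in MAVER1 at 10.7, 29.2, 10.9 and 45.0 CPM. The ironomycin libraries were the higher ones in each line, by least in JVM2, and the difference between lines passed (adjusted p = 0.0115). The genes that fell were GSR (-0.50), which reduces oxidised glutathione, the glutathione synthetase GSS (-0.55), TALDO1 (-0.48) and TKT (-0.50) of the pentose phosphate pathway, TXN (-0.43), which TXNRD1 reduces, PRDX1 (-0.49), and the membrane glutathione transferase MGST1 (-0.96). MGST1 had 0 or 1 reads in each JEKO1 library, so its fall rests on the other lines. It was at 5.05 CPM in the JVM2 control and 3.1 with both drugs, and at 39.2 and 17.9 CPM in MAVER1. IDH1, a source of NADPH, rose by 0.59.

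Of 18 detoxification and efflux genes tested, 6 passed with both drugs against control (33.3%, near the 28.2% of all genes), 3 higher and 3 lower, with a list median of 0.10. The carbonyl reductase CBR1 (-0.58), the aldose reductase AKR1B1 (-0.63) and the exporter ABCC4 (-0.47) fell. UGDH (0.65), ABCC5 (0.41) and ABCC3 (2.05) rose, and ABCC3 did so on 237 reads in all 12 libraries, nearly all from JVM2 (0.542 CPM in the control and 2.64 with both drugs). AKR1B10, AKR1C2, AKR1C3 and UGT1A6, targets of NRF2 in epithelial cells, were not tested for low counts and had 0 to 9 reads in all libraries together.

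Of 12 heme and iron genes tested, 7 passed with both drugs against control (beside 28.2% of all genes), 4 higher and 3 lower, with a list median of 0.05. FTH1, the ferritin heavy chain, was the gene that also rose with ironomycin alone over the 3 lines (0.59, SE 0.10, adjusted p = 0.0394), a call that was lost without JEKO1 and without MAVER1. FTH1 was at 225 CPM in the JEKO1 control and 316 with ironomycin, at 583 and 847 CPM in JVM2, and at 114 and 192 CPM in MAVER1. It rose within each line as well, by 0.49 (JEKO1), 0.63 (JVM2) and 0.77 (MAVER1), and the JVM2 call was lost without MAVER1. The heme transporters SLC48A1 (0.53), FLVCR1 (0.36) and ABCB6 (0.81) rose with both drugs. HMOX2, the constitutive heme oxygenase, fell by 0.47, the biliverdin reductase BLVRB by 0.78, and ALAS1, the first enzyme of heme synthesis, by 0.38.

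**Figure D5:**
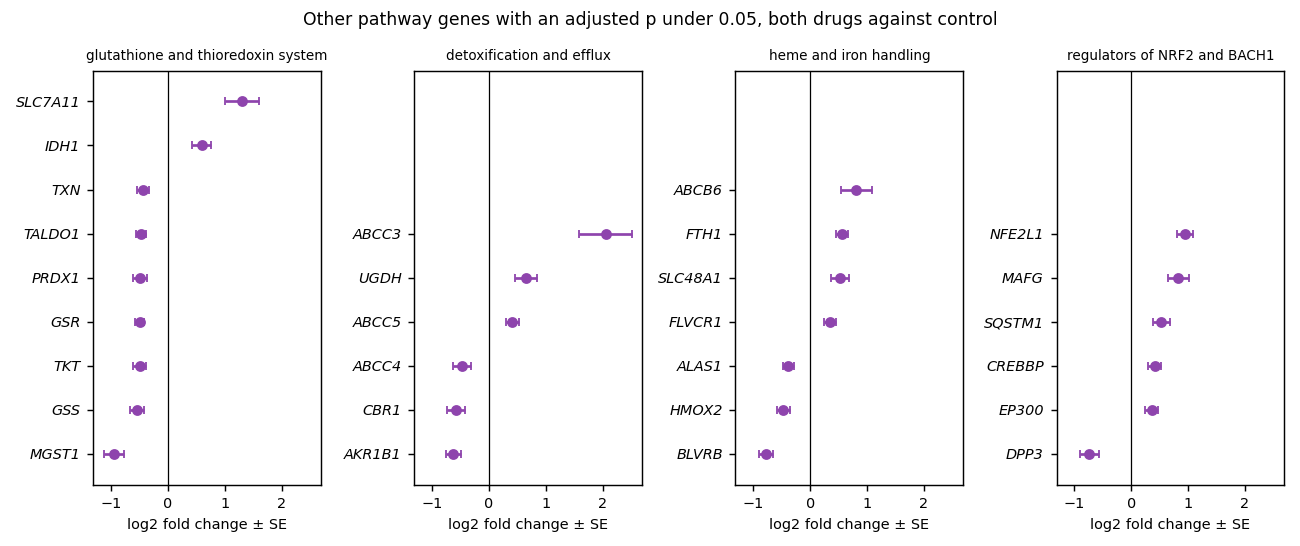
Log2 fold change with both drugs against control (points, horizontal axis, bars ± SE) for the 28 listed pathway genes with an adjusted p under 0.05, in 4 panels by list; genes that did not pass are not drawn. In the glutathione and thioredoxin panel 2 points lie above 0 and 7 below, and in the regulator panel 5 lie above 0 and 1 below. The 6 regulators drawn are 35.3% of the 17 tested, near the 28.2% of all genes (14.2% higher and 14% lower).

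Within lines, 29 of the 69 genes passed with ironomycin in JEKO1 (19 higher, 10 lower), 4 in JVM2 (3 higher, 1 lower) and 39 in MAVER1 (16 higher, 23 lower), beside 33.3%, 3.27% and 32.7% of all genes. The 4 in JVM2 were FTH1, NFE2L1, AKR1A1 (0.46) and GSR (-0.36). The difference between lines passed for 17 of 69 (24.6%, beside 9.38% of all genes). This fell to 6 without JVM2 and 3 without MAVER1, where 645 and 260 of all genes passed. POR, the electron donor of heme oxygenase, had the smallest adjusted p among the 17 (0.00263). POR fell in MAVER1 by 0.89 and in JEKO1 by 0.35, from 81.7 to 42.3 CPM and from 67.1 to 52.4 CPM with ironomycin against control, and was at 77.6 and 82.3 CPM in JVM2.

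The genes whose levels followed each of the 9 most closely were found by Pearson correlation of log2 CPM, with each line's mean removed, over the 12 libraries and 11668 genes. The libraries share lines and treatments, so these values describe likeness and were not tested. For GCLM the closest gene was GCLC, its partner subunit (r = 0.916). For BACH1 the closest were LYSMD3 (0.992), MXD1 (0.990), TNFRSF13C (0.989), ARFGAP3 (0.988) and USO1 (0.985). For SRXN1 it was HPDL (0.991), for KEAP1 TYSND1 (0.983), for NFE2L2 RASA2 (0.980), for GCLC MPPE1 (0.960), for NQO1 SCAP (0.952), for TXNRD1 TMEM241 (0.938) and for HMOX1 TFE3 (0.926). Among the 9 genes, SRXN1 and KEAP1 varied together (r = 0.881), and both varied opposite to BACH1 (-0.907 and -0.872). NQO1 was close to none of the glutathione subunits (-0.0972 with GCLM and -0.0291 with GCLC).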

How the data were processed

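RNA-seq was analysed for 12 libraries of 3 MCL cell lines under 4 treatments, with 1 library per line and treatment. The values deposited by the authors are raw counts per Ensembl gene, to which no normalization had been applied. The submitters' processing notes list STAR, DESeq2 and the genome build GRCh37. The counter, the annotation and the use of strand are not given in the sources used here. Of 63677 genes, 52181 received a symbol by matching Ensembl identifiers.

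R 4.3.3 and edgeR 4.0.16 served for testing: counts were scaled by TMM, filtered with filterByExpr and compared by the quasi-likelihood F-test in 1 model of treatment and cell line over the 12 libraries, and p-values were adjusted over 18674 genes (Benjamini-Hochberg). A call needed an adjusted p-value under 0.05 and a fold change of 2 or more, or, as the second rule, the adjusted p-value alone. The ironomycin change of each line came from a model with 1 ironomycin coefficient per line and shared ibrutinib and interaction terms, and its difference between lines from an F-test of 2 coefficients. The standard error was taken from the fold change and the F statistic. DESeq2 1.42.0 was an alternative. The cell line was a block because a line's libraries come from the same cells: deviations from treatment means correlated at 0.926 to 0.976 within lines (18 pairs) and at -0.705 to -0.127 between lines (48 pairs). Log2 CPM used a prior count of 2, and exon lengths came from GENCODE 29. Simulated counts were used to check the tests of both drugs against control, of ironomycin in JEKO1 and of its difference between lines. The other tests, among them those of levels between lines, were not scored on simulated counts. Intervals on a fold between 2 libraries are exact binomial (95%) and cover counting error only.

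The 9 genes, the pathway lists and the markers were chosen with earlier results of these data known. All 9 are named. A listed pathway gene could be named where it passed an adjusted p under 0.05 in any comparison, up to 6 per list and comparison, and genes most like a member were the 5 with the highest correlation among genes whose mean was 1 log2 CPM or more. WDR23 was not matched by name. Some listed markers, and the sums that hold them, are not reported here. TXN and the detoxification and efflux genes that did not pass the filter were named beyond this rule, after their values were seen. SLC40A1 of the heme and iron list, with 9 reads in all libraries, did not pass the filter either. Promoter sequences are from RefSeq (GRCh38.p14). Python 3.11.15, pandas 2.3.3 and matplotlib 3.10.9 were used for tables and figures.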

Additional observations from a re-analysis of the deposited data

Results flagged for a closer look

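The ironomycin change differed between cell lines for 4 of the 9 genes by a test of the difference itself (edgeR, 2 line-by-ironomycin coefficients, 12 libraries). NQO1 (adjusted p = 0.00127) was higher with ironomycin in JEKO1 (0.63 on the log2 scale) and lower in MAVER1 (-0.76), in both pairs of libraries of each line. BACH1 (adjusted p = 0.00718) was higher in all 6 pairs, by 1.10 in MAVER1, 0.67 in JEKO1 and 0.29 in JVM2. GCLC (adjusted p = 0.0266) was higher in both pairs of JEKO1 and of MAVER1 (0.28 and 0.30) and lower in both pairs of JVM2 (-0.29). TXNRD1 (adjusted p = 0.0326) was higher in both pairs of JEKO1 (0.26) and lower in both pairs of JVM2 (-0.29). In MAVER1 (-0.14) TXNRD1 had a fold of 0.835 with ibrutinib and 0.985 without it. The counting interval of the latter, 0.961 to 1.01, includes 1. Ironomycin doses were 50 nM in JEKO1 and 250 nM in JVM2 and MAVER1, and dose and line cannot be told apart.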

How the results depend on the processing

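None of the 9 genes was called at 2-fold over the 3 lines in any treatment comparison under the 9 alternatives run (2 other scalings, no filter on low counts, DESeq2, no cell line term, only the treatments compared, and leaving out each line). At an adjusted p under 0.05 alone the counts became 2 for both drugs against control, 2 for both drugs against ibrutinib, 4 for ironomycin in JEKO1, 6 for ironomycin in MAVER1, 7 for JEKO1 against JVM2, 4 for MAVER1 against JVM2 and 4 for JEKO1 against MAVER1. The count of genes whose ironomycin change differed between lines rose from 4 to 7 with separate ibrutinib terms for each line. Over all 18674 genes it rose from 1751 to 4819. When 1 line was left out, the count ran from 0 to 3, and over all genes from 260 to 1897. The cause was not tested. The separate terms also moved the counts at an adjusted p under 0.05 from 4 to 6 in JEKO1 (adding HMOX1 and SRXN1) and from 0 to 4 in JVM2 (GCLC, TXNRD1, SRXN1 and BACH1). Over all genes these counts rose from 6211 to 8035 in JEKO1 and from 610 to 2527 in JVM2. The count in MAVER1 was 5 with DESeq2 size factors (losing NFE2L2) and 5 with library totals (losing KEAP1). Over all genes, 6136 and 6072 passed with these scalings, beside 6104 with TMM. Without the filter the counts were 2 in JEKO1 and 4 in MAVER1, and DESeq2 gave 3 and 4 there and 3 (adding KEAP1) for both drugs against control and against ibrutinib. Over all genes, 5973 and 5866 of 35583 passed in JEKO1 and MAVER1 without the filter. DESeq2 gave 4815 and 5075 of 18674 there, and 6296 and 5545 for both drugs against control and against ibrutinib.

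Sign changes were seen only in log2 changes that had not passed the test. GCLM with both drugs against control became -0.0062 with DESeq2 size factors, -0.00807 without the filter, -0.0073 with DESeq2, -0.0148 with only these treatments and -0.0176 without the replicate block. With library totals, TXNRD1 with ironomycin became 0.0525, HMOX1 and NQO1 with both drugs against control 0.0502 and 0.123, NFE2L2 and KEAP1 with ironomycin in JEKO1 0.094 and 0.0294, and NQO1 in JVM2 0.0255. This scaling moved the median of all genes, for both drugs against control, from 0.051 to 0.176. Leaving out 1 line gave ranges of -0.36 to 0.21 for NQO1, -0.0452 to 0.0976 for GCLM, -0.0718 to 0.16 for GCLC, -0.16 to 0.10 for TXNRD1 and -0.0519 to 0.15 for NFE2L2 with ironomycin against control. With both drugs against control the ranges were -0.16 to 0.0798 for HMOX1, -0.33 to 0.31 for NQO1, -0.12 to 0.17 for GCLM, -0.0934 to 0.22 for GCLC and -0.0651 to 0.15 for NFE2L2. HMOX1 with both drugs against ibrutinib ran from -0.0742 to 0.58.

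All libraries of a line share their cells, so the line was a block. Without this pairing (no replicate block) 0 of the 9 genes and 0 of all genes passed over the lines, BACH1 with both drugs against control kept a log2 change of 0.73 (adjusted p = 0.855), TXNRD1 with ironomycin became 0.0239 and HMOX1 with both drugs against ibrutinib -0.0233.

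Limits: each line gave 1 library per treatment, doses differed by line, and the 20 reads of HMOX1 in 1 JEKO1 library limit every HMOX1 estimate that includes it.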
